A study of Rattus norvegicus with 4 samples.

Results

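The Egr2-AS RNA is an antisense transcript of Egr2 (Krox20), the gene of the transcription factor that drives Schwann cells to myelinate, and it was expressed here from a lentivirus to determine how it alters open chromatin. The regions described below are sites of open chromatin in megabase stretches of the genome where most sites ranked higher in the cells with the antisense RNA (Lenti-AS) than in the control cells (Lenti-GFP). There were 4356 such regions, in 150 bins of 1 Mb, among 31790 regions of open chromatin found in all 4 peak lists. Each region was ranked within each library by its summit pileup, the number of reads or fragments stacked at the highest point of its strongest peak, and the rank was written as a percentile from 0 to 100. The difference of a region is its mean percentile in the Lenti-AS libraries minus that in the Lenti-GFP libraries, in percentile points. A bin of 1 Mb, counted from the start of chromosomes 1 to 20, was taken when it held at least 10 of the shared regions and at least 75% of them had a difference above 0. The members were thus chosen by the pileup difference between the groups, and everything that compares the groups below is a description with no test.

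The cells were primary rat Schwann cells from sciatic nerve, the glia that wrap peripheral axons. All were grown in DMEM with 10% FBS, 4 μM forskolin, which raises cyclic AMP, and 5 ng/ml heregulin-β1, a Neuregulin that signals through ErbB2/3. They were infected for 48 h at 2 units of virus per cell with polybrene, either with virus carrying the antisense RNA or with the control virus carrying GFP, and 100000 cells went into each ATAC-seq library. ATAC-seq uses a transposase that inserts adapters where DNA is exposed, so peaks of fragments mark open promoters, enhancers and insulators. There were 2 libraries per group, named biological replicates by the submitters, who do not say whether they came from separate cultures or animals, so the spread between them may be technical. The age, sex and strain of the rats were not stated in the sources used here. The antisense RNA was cloned into pLVX-DsRed-Express2-N1 and the control vector was pLVX-AcGFP1-N1, so the antisense RNA and the remainder of the vector cannot be told apart. In a culture measured as a whole, a site open in more cells and a site more open in each cell cannot be told apart either. The Schwann cell label was not checked against marker genes, because the gene tables at hand are on another genome build than the peaks (rn6), and for the same reason no gene and no sequence is given for a region.

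Open sites are not spread evenly along chromosomes. They crowd in gene-rich stretches that make up the active compartment of the nucleus and thin out in the inactive one. Within the active compartment, chromatin folds into domains of up to about a megabase in which promoters and enhancers contact each other more often than they contact sites outside. A bin of 1 Mb is thus near the scale of such a domain, but the bins were cut at fixed positions and do not follow its borders.

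The lists held 54289 and 35646 peaks for replicates 1 and 2 of Lenti-GFP, and 43312 and 46125 for those of Lenti-AS. Values of a pair of libraries are given in this order throughout. The libraries differed in background and in signal. The background pileup over the whole genome was not measured but taken as the lowest level of background recovered at the peaks of a list. It was 4.99 and 1.98 reads or fragments in the Lenti-GFP libraries and 2.09 and 2.80 in the Lenti-AS libraries. It depends on the number of reads and on the length each was given, and the number of reads behind each list cannot be read from the peaks. Over all shared regions the median summit pileup was 16.0 and 20.7 times that background in the Lenti-GFP libraries, and 26.3 and 21.8 times in the Lenti-AS libraries. Both Lenti-AS libraries thus had the higher signal, but replicate 2 of the 2 groups lay closer together than the replicates of either group. The part of the signal in the results below was not tested.

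The member regions lay higher in both Lenti-AS libraries than in both Lenti-GFP libraries. Their median pileup percentile was 56.1 and 56.6 in the Lenti-GFP replicates, against 61.4 and 60.9 in the Lenti-AS replicates. The medians did not overlap between groups, and by pileup the members already stood above the middle of the list in the control cells. Written as pileup over the median of all shared regions of the same library, the median member stood at 1.09 and 1.15 in the Lenti-GFP replicates and at 1.27 and 1.23 in the Lenti-AS replicates. In the 177 bins that the mirrored rule gives, where at most 25% of the regions had a difference above 0, the same ratio was 0.950 and 0.951 in Lenti-GFP and 0.782 and 0.836 in Lenti-AS. These lower-ranked bins held 2406 regions.

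The median difference of the members was 4.07 percentile points, with quartiles at 0.802 and 8.48 and extremes at -25.3 and 32.1. Of the members, 3570 (82.0%) had a difference above 0, where 51.2% of all shared regions did. A smaller number, 1948 (44.7%), had both Lenti-AS percentiles above both Lenti-GFP percentiles, where the share over all shared regions was 23.2%. The opposite order, both Lenti-AS percentiles below both Lenti-GFP percentiles, was found in 244 members (5.60%), where 22.5% of all shared regions had it. The rule fixed these shares by taking bins rich in positive differences, and nothing is read from them.

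The rule took bins by the share of regions above 0 and not by the size of the difference, so it favours differences spread over many sites. Among the members 824 (18.9%) stood more than 10 points higher in Lenti-AS and 55 (1.26%) more than 10 points lower. In the 22325 other regions of bins with at least 10 shared regions, 8.48% stood more than 10 points higher and 8.81% more than 10 points lower. The SD of the difference between members of the same bin was 6.38 points, larger than the median shift, so single members of a bin ranged widely around it.

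**Figure D1:**
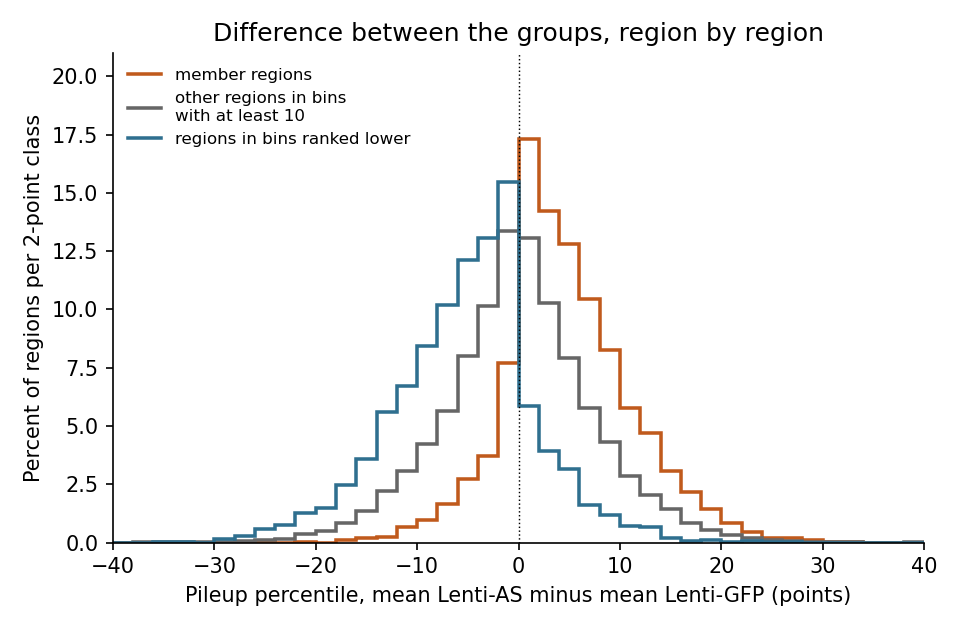
The horizontal axis gives the difference in pileup percentile (mean Lenti-AS minus mean Lenti-GFP, in points) and the vertical axis the percent of regions in each class of 2 points, for the 4356 member regions, the 2406 regions of bins ranked lower and the 22325 other regions of bins with at least 10 shared regions, which include the bins ranked lower. The member curve has its median at 4.07 points, the curve of the other regions is centred near 0, and all curves overlap widely.

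The same percentiles, which chose the members, can be set out for the 4 pairings of libraries across the groups, which share libraries with each other. The median difference of the members was 4.48 points for Lenti-AS replicate 1 minus Lenti-GFP replicate 1 and 4.40 for Lenti-AS replicate 1 minus Lenti-GFP replicate 2. It was 3.69 for Lenti-AS replicate 2 minus Lenti-GFP replicate 1 and 3.63 for Lenti-AS replicate 2 minus Lenti-GFP replicate 2. Within groups, where the rule asked for nothing, the median was 0.582 points between the Lenti-AS libraries (replicate 1 minus replicate 2) and -0.118 between the Lenti-GFP libraries. Since the rule asked for a positive mean over these pairings, their sign and size are no sign of stability.

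Bin by bin, the values that chose the members were as follows. The mean percentile of a bin was higher in both Lenti-AS libraries than in both Lenti-GFP libraries in 145 of the 150 member bins, where 35.3% of all 1311 bins with at least 10 shared regions had that order, and the rule favours it. Over the member bins the mean difference was 4.82 points with an SD of 1.59 between bins, and single bins lay between 0.729 and 11.5. Within groups, Lenti-AS replicate 1 exceeded Lenti-AS replicate 2 by 0.583 points on average with an SD of 2.02 between bins, and the Lenti-GFP libraries differed by 0.00990 points with an SD of 2.15. The 5 bins with overlapping groups held between 12 and 17 regions each. In chr11:62000001-63000000, for example, the mean percentiles were 38.8 and 37.1 in Lenti-GFP and 38.98 and 38.4 in Lenti-AS, with no separation between the groups.

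**Figure D2:**
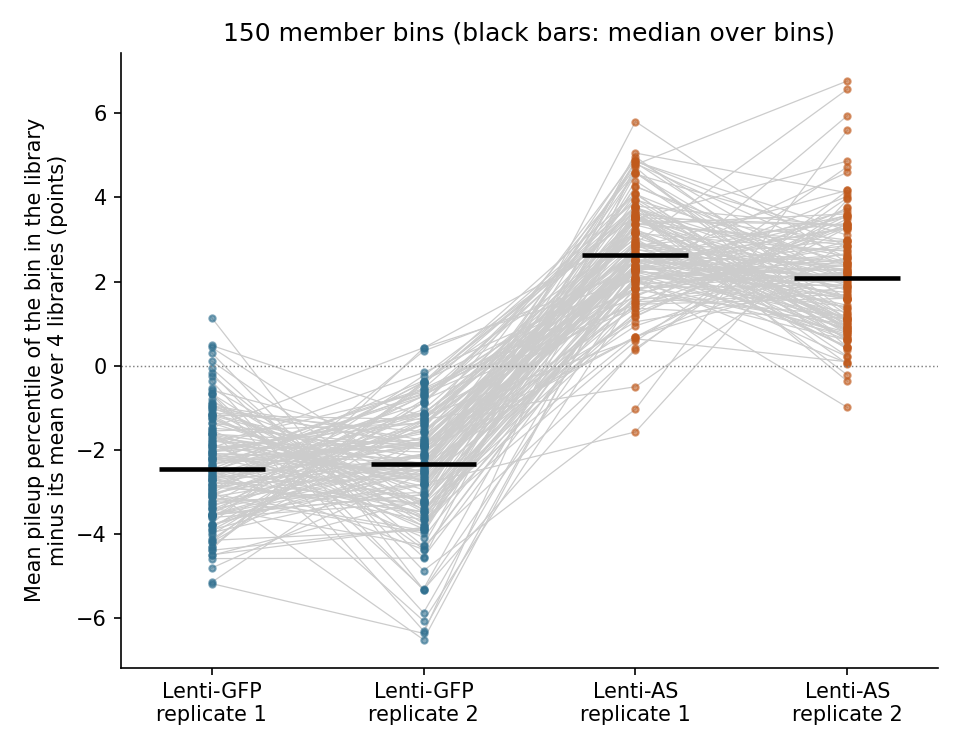
Each point is the mean pileup percentile of 1 of the 150 member bins in 1 library, minus the mean of that bin over the 4 libraries, in percentile points; grey lines join the values of a bin and black bars give the median over bins. The points of both Lenti-AS libraries lie mostly above 0 and those of both Lenti-GFP libraries mostly below, with 145 bins in which the groups do not overlap, as the choice of bins favours.

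To determine what moved with the pileup, the other quantities of the same peaks were ranked in the same way. The local background, the pileup that the peak caller expected at the peak from the reads around it, had a median difference close to that of the pileup. It was 4.18 points, and was above 0 in 3830 members (87.9%), where 51.6% of all shared regions had a difference above 0. In 2898 members (66.5%) the local background ranked higher in both Lenti-AS libraries than in both Lenti-GFP libraries, where 30.8% of all shared regions had that order. In units of the library's background over the whole genome, the median local background at members was 3.59 and 3.88 in the Lenti-GFP libraries and 4.75 and 4.30 in the Lenti-AS libraries. At the other regions of bins with at least 10 it was 3.11 and 3.25 in Lenti-GFP and 3.41 and 3.25 in Lenti-AS, so the wider distance between groups was at the members.

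The fold of the peak, its pileup plus 1 over its local background plus 1, had a median difference near 0. It was -0.00315 points over the members, and 2172 members (49.9%) had a difference above 0, where 52.3% of all shared regions did. This value averages pairings of opposite sign. Against Lenti-GFP replicate 1 the median difference in fold was 1.21 points for Lenti-AS replicate 1 and 0.242 for replicate 2, and against Lenti-GFP replicate 2 it was -0.222 and -0.897. Between the Lenti-GFP libraries it was -1.24 points (replicate 1 minus replicate 2), as large as any of these. By bins, the median difference in fold was above 0 in 74 of the 150 member bins, where 60.2% of all bins with at least 10 had that sign. The median difference in local background was above 0 in 146 of the 150, where 48.0% of the bins with at least 10 did. In level, the members stood below the middle of the list by fold, unlike by pileup. Their median fold percentile was 37.4 and 38.9 in the Lenti-GFP libraries and 39.6 and 38.4 in the Lenti-AS libraries. For regions of the bins ranked lower it was 58.6 and 57.9 in Lenti-GFP and 55.2 and 56.9 in Lenti-AS. The reads of a peak itself can enter its local background, and so can those of members nearby, so the surroundings without the peaks were not measured. Upward thus describes the pileup and the local background of these megabases and not the fold of their peaks.

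Other quantities lay between these. Pileup minus local background had a median difference of 4.13 points and was above 0 in 3413 members (78.4%), where 51.1% of all shared regions were above 0. The −log10 p of the peak had a median difference of 3.43 points and was above 0 in 3084 members (70.8%), where 51.4% were. Peak width had a median difference of 3.32 points and was above 0 in 2902 members (66.6%), where 52.6% were. The width difference differed widely between pairings, at 5.96 and 4.58 points against Lenti-GFP replicate 1 (Lenti-AS replicates 1 and 2) and 1.47 and 0.157 against Lenti-GFP replicate 2. The Lenti-GFP libraries differed from each other by -2.97 points in width, close in size to the shift. The same reads make up all of these quantities, so they are not independent of the pileup that chose the members.

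**Figure D3:**
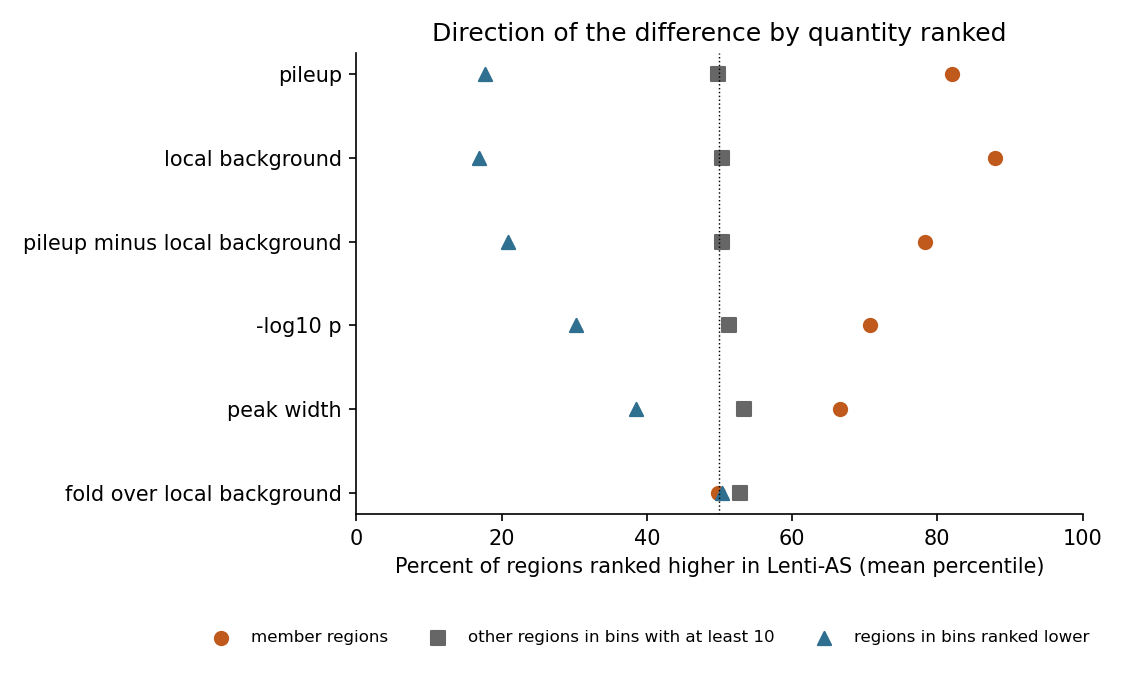
The horizontal axis gives the percent of regions whose mean Lenti-AS percentile lies above the mean Lenti-GFP percentile, and each row ranks another quantity of the same peaks; circles are member regions, triangles regions of bins ranked lower, and squares the other regions of bins with at least 10 shared regions, the bins ranked lower included. Members stand at 82.0% for pileup and 87.9% for local background and at 49.9% for fold, where the bins ranked lower stand at 50.3%.

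The size of the difference, in percentile points, varied with the strength of the site. Members below a mean percentile of 20 had a median difference of 4.89 points (519 members), and those between 20 and 40 had the largest, 7.20 points (800 members). The median then declined to 5.30, 4.09 and 2.07 points in the higher classes, the last with 1069 members. The classes were cut on the mean of the same percentiles, whose scale is bounded at both ends. Sites of the outer classes thus had less room to move, and the part of this limit was not tested. The share above 0, which the rule set, lay between 79.6% and 84.8% over the 5 classes.

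The member bins were rich in open sites, which the rule did not ask for beyond the minimum of 10. They held between 10 and 74 shared regions, with a median of 27, against a median of 17 in the 1161 other bins that passed the same minimum and 12 in the bins ranked lower. Counting every peak of a list, shared or not, the member bins held 43.3 and 31.4 peaks per Mb in the Lenti-GFP libraries and 40.8 and 41.1 in the Lenti-AS libraries. The other bins with at least 10 held 31.3, 21.2, 26.1 and 27.4 in the same order. The mean distance was 12.6 peaks per Mb. Regions found in all 4 lists are counted in each library and made up 59.98% of the regions in member bins, so the libraries are not separate measurements of the density of these bins and no test is given. The median gap from a member to the nearest shared region was 9.64 kb, against 13.7 kb for the other regions of bins with at least 10 and 20.4 kb for the bins ranked lower.

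The share of bins that were member bins grew with density. Among the 419 bins with 10 to 14 shared regions, 18 (4.30%) were member bins and 117 (27.9%) were ranked lower. From 25 to 29 regions there were 22 member bins among 142 (15.5%) and 2 ranked lower. Among the 59 bins with 40 to 74 regions, 25 (42.4%) were member bins and 0 were ranked lower. Over all bins of a class, members or not, the median of the bin medians was -1.94 points with 10 to 14 regions. It rose to 2.92 points with 40 to 74, so the trend with density was not limited to bins past the threshold. Sparse member bins existed all the same. Those with fewer than 30 regions held 1744 members, whose median difference was 4.26 points.

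**Figure D4:**
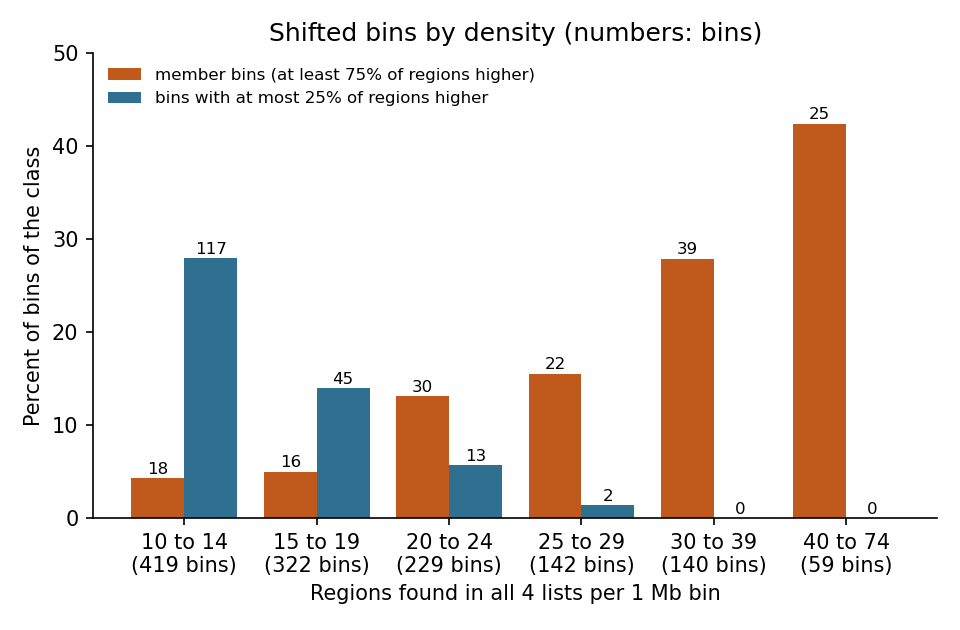
Bars give the percent of 1 Mb bins in each density class (shared regions per bin, horizontal axis) that were member bins or bins with at most 25% of regions higher in Lenti-AS, with the number of bins above each bar. Member bins make up 4.30% of the sparsest class and 42.4% of the densest, and the bins ranked lower run the other way, from 27.9% to 0.

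The local background at members was higher than at other shared regions in each library as well. On the log2 scale, over the library's background over the whole genome, members exceeded the other shared regions by 0.29 and 0.35 in the Lenti-GFP libraries and by 0.62 and 0.52 in the Lenti-AS libraries. Members stood higher in 4 of 4 libraries, but the local background is recovered together with the pileup that chose the members, so no test of it is given. The larger values of the Lenti-AS libraries belong to the contrast that chose the members.

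The width of members lay on either side of that of other regions. The strongest peak of a member had a median width of 749 bp and 516 bp in the Lenti-GFP libraries and 618 bp and 643.5 bp in the Lenti-AS libraries. Other shared regions had 764 bp and 517 bp in Lenti-GFP and 576 bp and 610 bp in Lenti-AS. Members were thus narrower by 15 bp and 1 bp in the Lenti-GFP libraries and wider by 42 bp and 33.5 bp in the Lenti-AS libraries. The sign follows the groups whose contrast chose the members, so the mean over the 4 libraries, 14.9 ± 27.2 bp (SD, n = 4 libraries), is given with no test. Merged over the lists, members had a median width of 793 bp, and 28.9% were wider than 1000 bp, against 798 bp and 29.5% over all shared regions.

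Sites that were not open in every library were also counted in the member bins. Of the 1060 regions found only in both Lenti-AS lists, 210 (19.8%) lay in member bins, whereas 32 of the 711 regions found only in both Lenti-GFP lists (4.50%) did. Of the regions in all 4 lists 13.7% lay there. The bins ranked lower held 48 (4.53%) and 73 (10.3%) of these one-group sites, and 7.57% of the regions in all 4 lists. Among the peaks found in 1 list alone, 18.5% of those of Lenti-AS replicate 1 and 13.7% of those of Lenti-AS replicate 2 lay in member bins, against 6.78% for Lenti-GFP replicate 1 and 11.4% for Lenti-GFP replicate 2. The lists compared are the same 4, so these counts are a second view of one contrast.

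All 20 numbered chromosomes carried at least 1 member bin, but in unequal numbers. Chromosome 10 had 27 member bins among its 80 bins with at least 10 shared regions (33.8%) and 873 members. Chromosome 20, whose start carries the rat major histocompatibility complex, had 10 of 33 (30.3%) and 335 members, and chromosome 12 had 9 of 38 (23.7%) and 273 members. At the other end, chromosome 2 had 2 of 104 (1.92%) and chromosome 4 had 3 of 88 (3.41%). Over the whole of chromosome 10, 67.1% of the shared regions had a difference above 0, and 68.9% on chromosome 12, against 39.6% on chromosome 2. These shares include the members. Without them 57.9% of 1382 regions were above 0 on chromosome 10, 63.1% of 650 on chromosome 12 and 52.9% of 533 on chromosome 20, and 38.6% of 2357 on chromosome 2. Outside chromosomes 10 and 20 there remained 113 member bins.

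**Figure D5:**
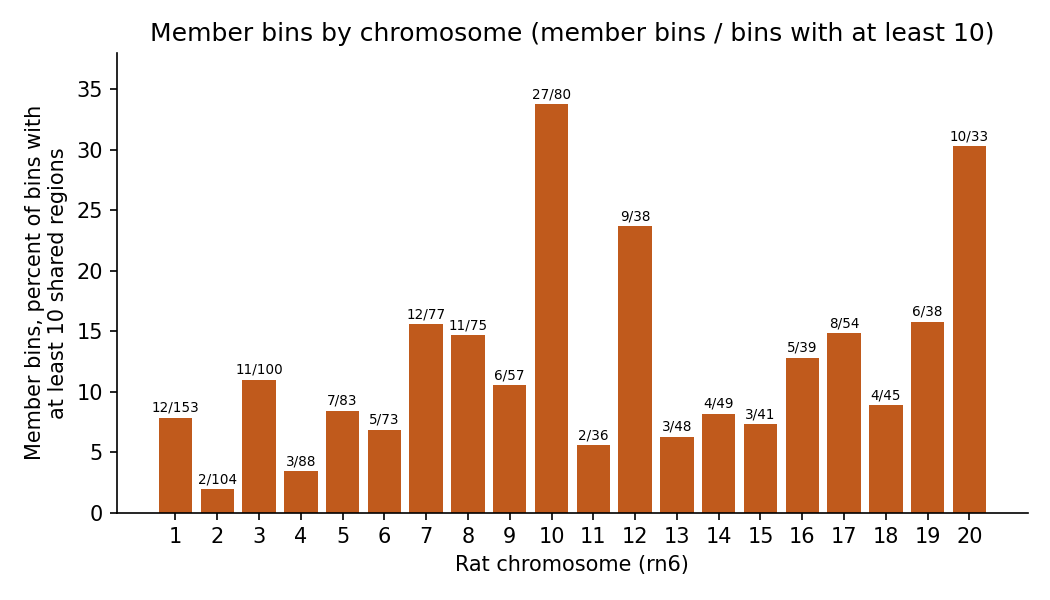
Bars give, for each numbered rat chromosome (rn6), the member bins as a percent of its bins with at least 10 shared regions, with both counts above the bar. Chromosomes 10 (33.8%), 20 (30.3%) and 12 (23.7%) stand highest and chromosome 2 (1.92%) lowest.

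Member bins lay somewhat nearer to chromosome ends than other bins, with the last peak on a chromosome taken as its end. The median distance from the middle of a bin to the nearest end was 23.0 Mb for member bins, 33.4 Mb for other bins with at least 10 and 38.8 Mb for bins ranked lower. Within 20 Mb of an end lay 65 member bins (43.3%) and 360 other bins (31.0%). The length of a chromosome limits this distance, and member bins were unequally spread over the chromosomes. Distances were not compared within chromosomes, so a preference for ends cannot be told apart from the mix of chromosomes.

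The member bins formed 107 separate stretches, of which 81 were single bins and 26 joined at least 2 adjacent bins. Bins next to a stretch, which were not members and are counted once each, often had most of their regions above 0. Among the 167 of them with at least 10 shared regions this held for 122 (73.1%), whereas it held for 400 of the 994 non-member bins further away (40.2%). By distance to the nearest member bin the share was 65.6% at 2 Mb, 50.7% at 3 Mb, 52.4% at 4 Mb and 35.1% from 5 Mb on. The borders of the stretches are those of the tiling and the threshold.

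The largest stretch by number of members was chr20:3000001-9000000, 6 Mb with 247 members. Its median percentiles were 53.8 and 55.5 in the Lenti-GFP libraries and 60.1 and 60.9 in the Lenti-AS libraries, so the groups did not overlap. The median difference was 5.18 points, 206 members (83.4%) were above 0, and 124 (of 247) had both Lenti-AS percentiles above both Lenti-GFP percentiles, an order that 23.2% of all shared regions had and that the rule favours. The local background differed by 5.51 points and the fold by -0.631, the same arrangement as over all members. The most shifted member with separate groups in this stretch was chr20:4955526-4956557, with summit pileups of 57 and 30 in Lenti-GFP and 57 and 66 in Lenti-AS. Placed in their lists these were percentiles of 27.4, 31.5, 51.9 and 54.2. Its fold was 3.51 and 4.14 in Lenti-GFP and 4.32 and 4.49 in Lenti-AS. The site stood low in the control lists and near the middle of the Lenti-AS lists, with the fold percentile only 0.444 points higher and that of the local background 24.7 points higher.

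On chromosome 10 the largest stretch was chr10:82000001-87000000, with 182 members of which 145 (79.7%) were above 0. Its median percentiles were 58.8 and 57.6 in Lenti-GFP and 64.1 and 62.5 in Lenti-AS, and the median difference was 4.29 points. The most shifted member with separate groups there, chr10:85443863-85444940, had pileups of 70 and 38 in Lenti-GFP and 86 and 76 in Lenti-AS. These were percentiles of 41.7, 45.1, 70.4 and 61.5, and the groups were further apart than the replicates of either. In this member the fold stood higher too, at 5.21 and 4.41 in Lenti-AS against 3.06 and 3.57 in Lenti-GFP.

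The stretch chr3:8000001-12000000 held 148 members, 126 of them (85.1%) above 0, with median percentiles of 55.4 and 58.7 in Lenti-GFP and 64.4 and 60.9 in Lenti-AS. Here the Lenti-AS libraries lay further apart than in the other large stretches, and the median difference was 4.35 points. Its most shifted member with separate groups, chr3:11128780-11129377, was a weak site in the control lists, with pileups of 38 and 19 and percentiles of 6.01 and 6.93. In Lenti-AS it had pileups of 40 and 39 and percentiles of 34.7 and 25.9. Both Lenti-AS values lay above both control values in raw pileup and in percentile, and in raw pileup the first control library was close to the Lenti-AS libraries.

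The densest stretch was chr7:11000001-13000000, where 2 bins held 147 members, 125 of them (85.0%) above 0. These were strong sites, with median percentiles of 69.6 and 70.01 in Lenti-GFP and 75.7 and 75.2 in Lenti-AS and a median difference of 3.55 points. The local background differed by only 1.48 points and the fold by 0.334. The most shifted member with separate groups, chr7:12471596-12472244, had percentiles of 41.7 and 65.3 in Lenti-GFP and 75.3 and 69.4 in Lenti-AS, so the control replicates differed by more than the groups did at their nearest.

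The stretch chr5:152000001-155000000 held 106 members, tied with chr10:104000001-107000000, and 93 of them (87.7%) were above 0. Median percentiles were 61.9 and 65.3 in Lenti-GFP and 67.5 and 66.8 in Lenti-AS, with a median difference of 4.70 points. Its most shifted member with separate groups, chr5:153210179-153211339, had pileups of 55 and 26 in Lenti-GFP and 53 and 57 in Lenti-AS. The percentiles were 24.995, 22.7, 48.4 and 46.3, and both replicate pairs were close together. The fold was 5.41 and 5.23 in Lenti-GFP and 7.95 and 7.55 in Lenti-AS, higher in both Lenti-AS libraries.

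The bins with the highest median difference were smaller than these stretches. The first, chr1:50000001-51000000, had 18 of 18 regions above 0 and a median difference of 11.6 points, and 15 of the 18 had both Lenti-AS percentiles above both Lenti-GFP percentiles. Over all shared regions 51.2% were above 0 and 23.2% had that order, and the bin was picked for its difference. Its mean percentiles were 51.9 and 50.7 in Lenti-GFP and 61.9 and 63.9 in Lenti-AS. Unlike most member bins it was shifted in fold as well, by 8.74 points, next to 9.47 in local background. The most shifted member with separate groups, chr1:50603561-50604664, had pileups of 72 and 34 in Lenti-GFP and 63 and 85 in Lenti-AS, percentiles of 43.6, 38.8, 56.6 and 67.2, and folds of 4.74, 6.27, 7.78 and 7.67. Every one of these quantities but the raw pileup was higher in both Lenti-AS libraries, and the raw pileup carries the depth of the library.

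The other bin in which each region was above 0 was chr20:20000001-21000000, with 22 of 22 and a median difference of 8.35 points. Mean percentiles were 45.8 and 42.2 in Lenti-GFP and 51.7 and 55.3 in Lenti-AS, and 13 of the 22 regions had both Lenti-AS percentiles above both Lenti-GFP percentiles, where 23.2% of all shared regions did. This bin too was picked for its difference. Its local background differed by 9.18 points and its fold by 1.57. Among members with separate groups the most shifted, chr20:20602178-20602849, had percentiles of 18.8 and 25.03 in Lenti-GFP and 40.5 and 47.2 in Lenti-AS. The next bin on the chromosome, chr20:21000001-22000000, was also a member bin, but its groups overlapped, with mean percentiles of 38.6 and 32.1 in Lenti-GFP and 37.8 and 41.2 in Lenti-AS.

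The remaining bins of the leading 6 had median differences between 7.92 and 8.93 points. In chr8:47000001-48000000, 17 of 19 regions were above 0, with mean percentiles of 40.8 and 41.0 in Lenti-GFP and 49.8 and 48.2 in Lenti-AS. In chr16:48000001-49000000 it was 18 of 22, with mean percentiles of 51.4 and 52.0 against 59.4 and 60.8. In both bins the replicates lay closer to each other than the groups did. The most shifted member of the latter with separate groups, chr16:48318029-48318746, had pileups of 88 and 46 in Lenti-GFP and 106 and 107 in Lenti-AS, and folds of 5.07 and 6.87 against 10.7 and 8.75. In chr16:84000001-85000000, 9 of 11 regions were above 0, and the most shifted, chr16:84000644-84001177, had percentiles of 6.94 and 20.4 in Lenti-GFP and 43.6 and 32.2 in Lenti-AS. In chr20:7000001-8000000, part of the largest stretch, 42 of 50 were, and there the fold differed by -0.530 and the local background by 6.36. Its most shifted member with separate groups, chr20:7280358-7281000, had percentiles of 9.74 and 27.3 in Lenti-GFP and 38.3 and 32.2 in Lenti-AS. In both of these weak sites the control replicates were wide apart. The corresponding member of the bin on chromosome 8, chr8:47646856-47647370, had closer replicates, with percentiles of 29.7 and 33.4 in Lenti-GFP and 50.2 and 48.2 in Lenti-AS.

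A typical member moved far less than these. The member nearest to the median difference, chr13:48679251-48680132, had pileups of 132 and 64 in Lenti-GFP and 117 and 106 in Lenti-AS. Its percentiles were 82.4 and 71.5 in Lenti-GFP and 84.0 and 78.1 in Lenti-AS, so the groups overlapped and the replicates of each group differed by more than the group means.

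Many bins lay close to the threshold. Of the member bins 9 stood at exactly 75% and 61 below 80%, and another 96 bins lay between 70% and 75%. Just inside were chr1:220000001-221000000 with 30 of 40 regions above 0, and chr12:43000001-44000000 and chr18:27000001-28000000 with 24 of 32 each. Their median differences were 1.64, 5.61 and 2.89 points. Just outside were chr8:48000001-49000000 and chr13:52000001-53000000 with 32 of 43 regions each, and chr5:136000001-137000000 with 29 of 39. Their median differences were 2.98, 4.05 and 2.78 points, within the range of the bins just inside. At the limit on number, 2 member bins held 10 regions, and 1 bin with 9 regions would have passed on its share. The member bins are thus the upper end of a continuous range of bins.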

How the data were processed

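Paired-end ATAC-seq reads of 4 libraries were aligned by the authors to rn6 (Bowtie2), freed of duplicates (Picard) and used for peak calls library by library (MACS2), per the submitters' processing notes (versions and options not given in the sources used here). The deposited columns used were the fold ratio, the −log10 p and, as a filter, the −log10 q; the deposited score, −log10 q times 10 per the file format, was not used. Summit pileup and local background were recovered from fold and −log10 p. The recovered −log10 p lay within 0.001 of the deposited value for 100% of the peaks. By its defaults, MACS2 takes the local background from reads around a peak, the peak's own included, and never below the library-wide level. That level, called the background over the whole genome above, was taken as the median of the smallest local backgrounds recovered in each list.

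Merging the peaks that overlapped by 1 bp or more gave 58879 regions. Regions in all 4 lists were ranked within each list (ties averaged). Of these, 31191 lay on chromosomes 1 to 20. They fell into 2294 bins, 1311 of them with at least 10. Local background, fold, width and −log10 p are those of the peak with the largest pileup. The exact sign-flip permutation tests over libraries planned for peaks per Mb, width and local background are not quoted, because these values share regions or reads with those that chose the members. Software was Python 3.11.15, scipy 1.17.1, pandas 2.3.3. Recovery and binning were tested on simulated data. The members and the quantities described were chosen with earlier results of these data known. Stretches named are the 5 with the most members and the 6 bins with the highest median difference, each with its most shifted member among those whose groups do not overlap, the member nearest the median, and up to 3 bins on each side of the threshold (larger bins first among ties). The bins with overlapping groups and the neighbour on chromosome 20 were named after their values were seen. Gene, promoter, marker and motif content was not analysed here, since the reference tables are on GRCr8. Positions are on rn6, counted from 1. Alternatives are given in the closing section.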

Additional observations from a re-analysis of the deposited data

How the results depend on the processing

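Rankings by pileup minus local background and by local background itself, and the median over members of bins under 30 regions, were added once the data had been seen. The median difference of the members, 4.07 points, became -0.00315 when fold was ranked and 3.43 when −log10 p was; fold divides out the local background by construction. It stayed within the replicate spread (0.339 points) for summed pileups (3.95), pileup minus background (4.13), local background (4.18) and members of sparser bins (4.26). Without 1 library it ran from 3.64 (without Lenti-AS replicate 1) to 4.38.

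Chosen anew by fold, there were 1264 members in 82 bins, of which 109 were members before, 2.50% of the members and 8.62% of the new set. By −log10 p there were 1983 in 77 bins. A share of 70% gave 6736 in 246 bins and 80% gave 2620 in 89, and bins of 0.5 Mb and 2 Mb numbered 286 and 58. Moving the tiling by 0.5 Mb gave 4571 members, 2728 of them shared (62.6% of the members). Leaving out 1 library gave 3051 to 4232 members in 106 to 146 bins; without Lenti-AS replicate 1, 48.0% of the members were still chosen. Member counts with other bin sizes, other minimum numbers of regions (5 or 20), a −log10 q of at least 5 or pileup minus background stayed within 1.5 times of 4356.

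The mean over libraries of member minus other values stayed above 0: 11.9 to 13.4 peaks per Mb, 0.39 to 0.50 on the log2 scale for local background and 5.83 to 24.8 bp for width when 1 library was left out. Membership was kept fixed here, and the libraries share regions and reads with the values that chose the members. These ranges are thus no sign of stability, and the width difference took both signs in single libraries. The width difference fell to 5.83 bp without Lenti-AS replicate 1 and 8.67 bp without Lenti-AS replicate 2, and was 24.8 bp without Lenti-GFP replicate 1. No paired analysis was possible because the comparison of the groups comes from no test to which a block could be added. This limit concerns a paired test alone. As a description by replicate number, the median member stood 4.48 points higher in Lenti-AS for replicate 1 and 3.63 for replicate 2. Pileups were compared by rank alone, since the peak lists do not give the reads behind them.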
